A study of Mus musculus with 4 samples.

Results

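Transcript pairs that begin at different places and end at the same base were described in 32Dclone3 cells, a mouse myeloid line grown with interleukin-3. A gene was a member if it had 2 or more RefSeq transcript rows on a single chromosome and strand and none elsewhere, and if these rows shared the transcript end but had 2 or more different starts. Of 21506 genes, 3423 had more than 1 row and 1092 met this rule, with 2933 rows between them. For each gene the row with the most upstream start was paired with the row with the most downstream start, and rows with starts in between were not used for the pair.

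There were 4 RNA-seq libraries, 2 from cells stably infected with the control virus XZ and 2 from cells infected with the same vector carrying miR-125b. Both groups were the same cell line in the same medium, and no other allele or agent is named in the labels. Separate virus supernatants were used for the infections of a condition, and the labels do not say whether the libraries also came from separate clones or days, so p-values measure only the spread between these libraries. The question was whether cells with miR-125b used the upstream or the downstream start of a gene to a different extent than control cells. Libraries held 10.4 to 12.6 M reads summed over all rows. The myeloid genes Ptprc (42.4 to 57.3 RPKM, reads scaled by exon length and by library depth) and Spi1 (69.6 to 127 RPKM) were present in every library. Of the progenitor genes, Kit was at 0 to 0.0186 RPKM and Cd34 at 0 to 0.181 RPKM. Among genes of other cell types, Epcam and Dcn were listed at 0 and the fibroblast gene Col1a1 was at 0.114 to 0.308 RPKM. The erythroid gene Klf1 was at 2.83 to 5.44 RPKM. Mir125b-1 had 0 reads in both control libraries and 4 in each miR-125b library. Libraries of this kind are made from poly(A) RNA and do not capture the mature miRNA, so these few reads are the only label check of that kind here.

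Many mammalian genes have more than 1 promoter, a stretch of DNA from which RNA polymerase begins a transcript. A switch of promoter replaces the first exon, and it can change the N terminus of the protein or only the leader of the mRNA, while the later exons stay the same. In blood cells, Runx1, Lmo2, Mitf and the DNA methyltransferase gene Dnmt3a are textbook cases of genes with a distal and a proximal promoter.

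The members covered a wide span of layouts. The downstream first exon lay inside an intron of the upstream transcript in 728 genes (66.7%), it overlapped a later exon of the upstream transcript in 218, and the first exons themselves overlapped in 146 (13.4%). The starts were a median of 2606.5 bases apart (quartiles 367 and 24315.75), with 143 pairs under 100 bases and the farthest pair 2184335 bases apart. In 674 genes exactly 1 upstream exon preceded the downstream first exon, and in 69 genes 5 or more did. The exon bases found in only 1 of the paired rows made up a median of 13.6% of the bases of the pair (quartiles 7.85% and 23.6%), so most reads of a pair were shared by both rows. A total of 194 members had no read in any row in the 4 libraries. In 67 members (6.14%) the bases that set the rows apart also lay in an exon of another gene, and reads there cannot be assigned to either gene.

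The DNA just before the starts is shown for 6 genes with both windows in RefSeq's promoter table (build GRCm38.p6, which differs from the mm9 build of the expression tables). They are examples of different balances of reads between the paired rows. Cbfa2t3, Dnmt3a and Lmo4 had a balance near that expected of the upstream start alone, and Ccnd3 near that of the downstream start alone. Hk1 and Aldoa lay in between, which does not by itself show that both starts were used. Each line holds the 100 bases before the start, 5′ to 3′ on the strand of the gene. Capitals mark matches to 5 short motifs or their reverse complements: the GC box GGGCGG, the CCAAT box, the TATA box TATAAA, the RUNX core site TGTGGT and the PU.1 core site GAGGAA, where neighbouring matches can share bases.
Cbfa2t3, upstream start, chr8:122699110-122699209, minus strand: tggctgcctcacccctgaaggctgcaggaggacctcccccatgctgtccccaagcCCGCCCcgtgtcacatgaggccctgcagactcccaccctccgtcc
Cbfa2t3, downstream start, chr8:122678176-122678275, minus strand: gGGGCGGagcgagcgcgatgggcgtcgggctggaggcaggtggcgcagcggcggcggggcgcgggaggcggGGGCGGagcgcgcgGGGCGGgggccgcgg
Dnmt3a, upstream start, chr12:3806880-3806979, plus strand: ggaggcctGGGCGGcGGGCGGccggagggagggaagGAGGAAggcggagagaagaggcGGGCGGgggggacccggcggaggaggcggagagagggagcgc
Dnmt3a, downstream start, chr12:3891644-3891743, plus strand: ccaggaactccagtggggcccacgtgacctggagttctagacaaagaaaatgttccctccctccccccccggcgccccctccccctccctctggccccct
Lmo4, upstream start, chr3:144205256-144205355, minus strand: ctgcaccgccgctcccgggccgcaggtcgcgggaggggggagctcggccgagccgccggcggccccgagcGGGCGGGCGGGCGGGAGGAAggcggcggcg
Lmo4, downstream start, chr3:144202333-144202432, minus strand: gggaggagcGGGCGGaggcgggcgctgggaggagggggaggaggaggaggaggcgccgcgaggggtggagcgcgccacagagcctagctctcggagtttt
Ccnd3, upstream start, chr17:47504951-47505050, plus strand: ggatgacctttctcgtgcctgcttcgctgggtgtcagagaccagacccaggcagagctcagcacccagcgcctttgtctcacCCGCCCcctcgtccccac
Ccnd3, downstream start, chr17:47593367-47593466, plus strand: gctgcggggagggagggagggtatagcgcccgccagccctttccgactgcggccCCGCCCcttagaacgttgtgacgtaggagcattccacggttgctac
Hk1, upstream start, chr10:62379909-62380008, minus strand: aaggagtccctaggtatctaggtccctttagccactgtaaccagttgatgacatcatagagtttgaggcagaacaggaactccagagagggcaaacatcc
Hk1, downstream start, chr10:62340422-62340521, minus strand: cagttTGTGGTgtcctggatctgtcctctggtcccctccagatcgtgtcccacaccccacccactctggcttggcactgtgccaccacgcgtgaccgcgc
Aldoa, upstream start, chr7:126800448-126800547, minus strand: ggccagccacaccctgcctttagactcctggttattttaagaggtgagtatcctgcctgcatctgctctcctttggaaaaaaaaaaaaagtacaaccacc
Aldoa, downstream start, chr7:126799179-126799278, minus strand: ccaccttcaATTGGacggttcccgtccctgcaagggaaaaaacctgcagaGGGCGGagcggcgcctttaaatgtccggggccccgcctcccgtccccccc

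In these 6 genes the windows differ in kind as well as in letters. The windows of Lmo4 and of Dnmt3a before the upstream start carry 3 GC boxes each, and those of Hk1 and Aldoa before the upstream start carry none of the 5 motifs. For Cbfa2t3 the window before the downstream start holds 3 GC boxes and that before the upstream start holds 1. A match is a run of letters and not a shown binding site.

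Promoter windows of 300 bases (250 before and 50 after a start) were found for both starts of 476 members, by symbol, chromosome, strand and the same distance between starts. Among the 422 of these whose first exons do not overlap, the upstream window had a median GC content of 59.2% and the downstream window 56.7%, against 52.7% over all 32851 starts of the table. Within pairs the upstream window was the richer one in 217 (51.4%), with a median difference of 0.33 points. The ratio of observed to expected CpG was 0.624 upstream and 0.453 downstream in the median, against 0.384 over all starts. A ratio of 0.6 or more is only part of the usual definition of a CpG island. It was met by both windows in 101 genes, by the upstream window alone in 125 and by the downstream window alone in 65. In 131 genes neither window met it. GGGCGG was found in 54.5% of upstream and 44.1% of downstream windows (35.7% of all starts), TATAAA in 7.58% and 8.53% (13.6%), and CCAAT in 34.4% and 31.5% (37.4%). TGTGGT was in 14.7% and 15.2% (16.8% of all starts) and GAGGAA in 27.7% and 24.9% (28.3%), on either strand.

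To describe which start was used, an index was computed from the recovered reads of both rows and the lengths of their own and shared exon bases. It is 0 if the reads have the ratio expected with the downstream start alone, and 100 if they have the ratio expected with the upstream start alone, under even coverage. Coverage is not even, so values below 0 or above 100 occur. The paired rows give only the difference between upstream-only and downstream-only reads. Use of both starts can give a value in between, but so can few reads in the own bases of both rows. Reads from a start between the paired ones can have the same effect. A value in between therefore does not show that both starts were used. With equal reads in both rows the index depends only on the lengths of their own bases, and it can then lie near either end. A value near an end therefore does not by itself show that a single start was used. Any exon that only 1 of the rows holds enters the index, also a later exon that is spliced differently. The index and its limits were chosen after the values were seen, and it carries no test. It was computed for the 252 members (23.1%) whose first exons do not overlap and whose own bases on each side were expected to hold 20 or more reads.

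The index was between 20 and 80 in all 4 libraries in 127 genes (50.4%), at 80 or above in all 4 in 30 (11.9%) and at 20 or below in all 4 in 19 (7.54%), while 76 (30.2%) crossed a limit between libraries. The lengths of the own bases enter these classes. Pttg1, with 48 upstream-only and 998 downstream-only bases, was at 85.5 and 88.0 in control and 87.4 and 88.0 in miR-125b libraries. Yet its upstream-only minus downstream-only reads were -70 and -45 in control and -67 and -51 in miR-125b libraries. With limits of 30 and 70 in place of 20 and 80, 86 genes lay between them in all 4 libraries. The median index was 53.4 and 56.4 in control replicates 1 and 2 and 54.3 and 54.5 in miR-125b replicates 1 and 2. Control replicate 2 stood apart in spread, with an interquartile width of 44.5 against 31.7 to 35.9 in the other libraries, and it was the highest or the lowest of the 4 libraries in 185 of 252 genes. Without it, 163 genes lay between the limits in every library, 34 at or above the upper limit, 20 at or below the lower limit, and 35 crossed one.

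**Figure D1:**
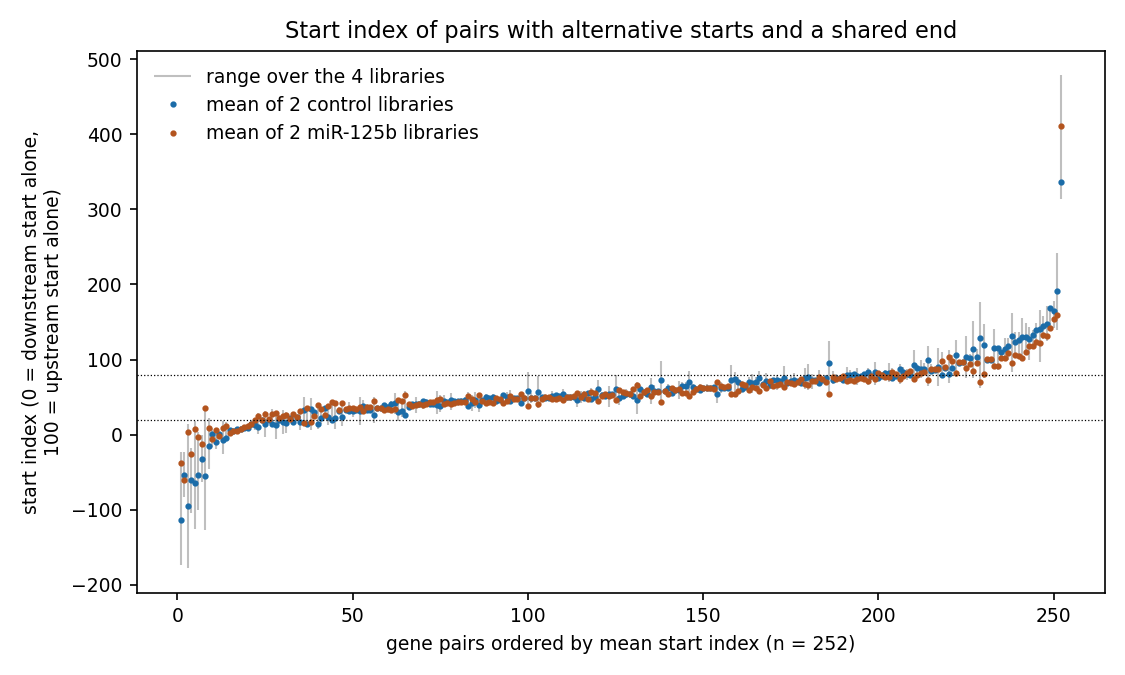
Start index (vertical axis) of the 252 pairs ordered by their mean (horizontal axis), with points for the mean of the 2 libraries of a group and grey lines for the range over the 4 libraries. Dotted lines mark 20 and 80; 127 pairs lie between them in every library, and the widest ranges are at both ends.

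Gene families were set by symbol and are described by their counts beside those of all 252 genes. Of 19 transcription factor and chromatin genes with an index, 5 (Runx1, Stat5b, Smarca2, Cbx5 and Atf5) were at or above 80 in all 4 libraries, 11 lay between, 3 crossed a limit and 0 were at or below 20. The upstream-only bases of Atf5 overlap an exon of Nup62. Runx1, the transcription factor required for definitive blood formation, has a distal promoter P1 and a proximal promoter P2, here 128738 bases apart (mm9 chromosome 16, minus strand, starts at 92826311 and 92697573). Its index was 98.9 and 101 in control and 98.5 and 104 in miR-125b libraries. Reads in the 249 bases held only by the P1 row exceeded those in the 1591 bases held only by the P2 row by 57 and 95 in control and by 58 and 93 in miR-125b libraries. All 4 libraries thus had the read ratio expected of the distal start alone, and the groups overlapped.

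Cbfa2t3 (ETO2), a corepressor that partners with haematopoietic transcription factors, was as one-sided. Its starts lie 20934 bases apart (mm9 chromosome 8, minus strand, 125223009 and 125202075), and its index was 95.9 and 96.6 in control and 97.4 and 96.0 in miR-125b libraries. The read ratio was thus near that expected of the upstream start alone. Over 300 bases, the downstream window has the higher CpG ratio (1.09 against 0.33) and GC content (81.7% against 63.7%). The part of GC content in this index was not tested. The transcription factor Stat5b, which acts downstream of the interleukin-3 receptor, had an index of 93.9 and 114 in control and 94.2 and 97.2 in miR-125b libraries. Smarca2, an ATPase of the SWI/SNF remodelling complex, has a short downstream form that lacks 27 upstream exons, and the index was 80.9 and 89.1 against 93.6 and 82.4. Cbx5, which encodes heterochromatin protein HP1 alpha, was at 114, 137, 103 and 106.

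Dnmt3a makes a long protein, DNMT3A1, from its upstream start and a short one, DNMT3A2, from an internal promoter. The downstream row has only 117 bases of its own, under the read limit for the index, so its values are given apart: 111 and 108 in control and 120 and 105 in miR-125b libraries. Reads of the upstream row exceeded those of the downstream row by 509 and 459 in control and by 668 and 604 in miR-125b libraries. The excess is a lower bound for the reads in exons that only the long form has.

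Other blood regulators varied more between libraries or had few reads. Lmo2, a LIM-domain adaptor of blood and endothelial transcription complexes, had an index of 56.9 and 39.9 in control and 59.8 and 59.6 in miR-125b libraries, with the low value in control replicate 2. Runx2, a relative of Runx1 that also has a distal and a proximal promoter, was at 21.3 and 7.35 in control and 42.0 and 38.2 in miR-125b libraries at 4.41 to 7.14 RPKM. For Stat5a all exon bases of the downstream row lie in the upstream row, and the 282 bases held only by the upstream row had 40.4% and 44.0% of the read density of the downstream row in control and 39.2% and 46.6% in miR-125b libraries. Mitf, known for its many promoters, had only 1.04 to 2.07 RPKM in its paired rows. The excess of its upstream reads was 8, 9, 6 and 17, and its index, under the read limit, ranged from 61.2 to 222. Cdkn2a, Pklr and Kit are members too, but none had more than 1 read per row in any library, so their starts could not be compared.

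**Figure D2:**
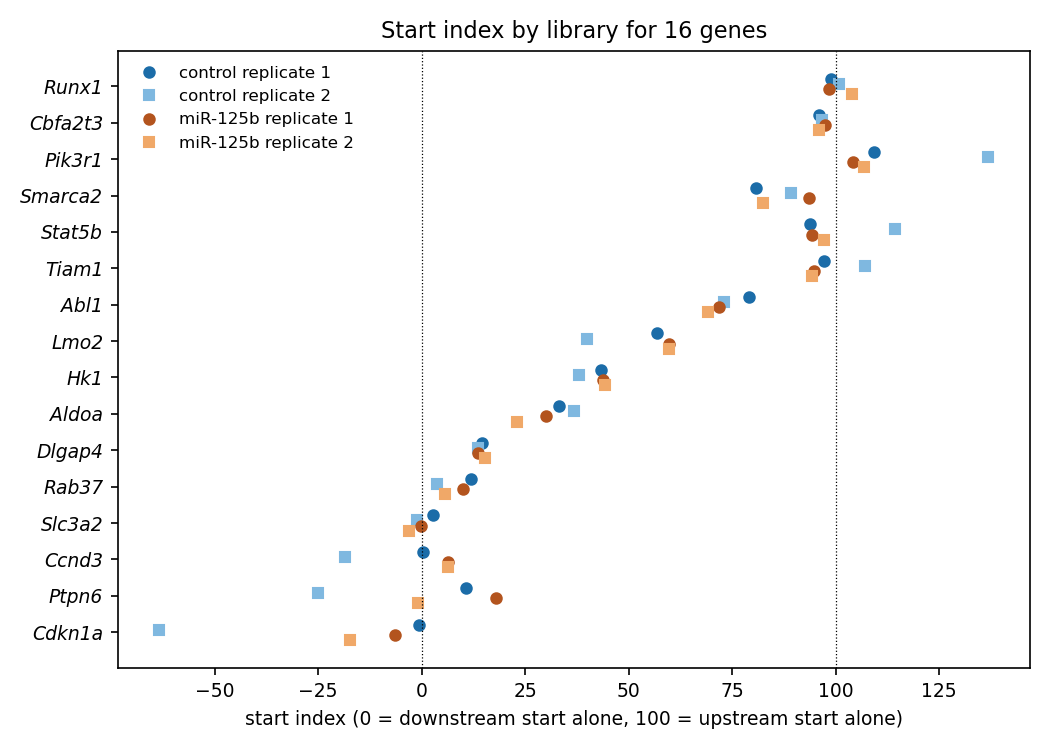
Start index (horizontal axis) of 16 genes in each library, blue for control and brown for miR-125b, with circles for replicate 1 and squares for replicate 2. Runx1 and Cbfa2t3 sit near 100, Slc3a2 near 0, and control replicate 2 is the farthest point out for Pik3r1 (137) and Cdkn1a (-63.4).

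Among 14 genes with an index that the symbols put with kinases and phosphatases, 2 (Pik3r1 and Prkd3) were at or above 80 and 2 (Ptpn6 and Ablim1) at or below 20 in all 4 libraries, although Ablim1 encodes an actin-binding protein. Pik3r1 encodes p85 alpha, the regulatory subunit of class I phosphoinositide 3-kinase, from its upstream start and shorter subunits that lack the N-terminal domains from downstream starts. Its index was 109 and 137 in control and 104 and 107 in miR-125b libraries, with 433, 533, 696 and 480 more reads in upstream-only than in downstream-only bases. Prkd3, a protein kinase D, was at 104 and 96.5 against 97.6 and 104. Abl1, the tyrosine kinase of the BCR-ABL fusion, has starts 71389 bases apart that give proteins with different N termini. Its index was 79.2 and 73.0 in control and 71.9 and 69.1 in miR-125b libraries. These values lie between the limits and do not by themselves show use of the downstream start.

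Ptpn6 (SHP-1), the phosphatase that damps cytokine and immune receptor signalling, lay at the other end. Its upstream promoter is known from epithelial cells and its downstream promoter from blood cells, and the starts are 5564 bases apart (mm9 chromosome 6, minus strand, 124688727 and 124683163). Both rows were abundant, at 116 to 185 RPKM for the upstream and 129 to 201 RPKM for the downstream row, because they share 1999 bases. Reads in downstream-only bases exceeded those in upstream-only bases by 356 and 608 in control and by 270 and 308 in miR-125b libraries, which gave an index of 10.6 and -25.0 against 18.1 and -0.989. In all 4 libraries the row with the start known from blood cells thus had more reads in its own bases.

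The cell cycle genes Ccnd3 and Cdkn1a also lay at the downstream end of the index. Ccnd3 encodes cyclin D3, which drives G1 progression of blood cells, and its starts lie 88416 bases apart (mm9 chromosome 17, plus strand, 47642000 and 47730416). Its index was 0.434 and -18.6 in control and 6.43 and 6.37 in miR-125b libraries. Cdkn1a encodes the cyclin-dependent kinase inhibitor p21, and its index was -0.706 and -63.4 in control and -6.36 and -17.4 in miR-125b libraries at 166 to 377 RPKM. In both genes control replicate 2 was the lowest library. Fbxw7, the substrate receptor of a ubiquitin ligase for cyclin E and MYC, lay at the upstream end, with 125 and 139 in control and 116 and 119 in miR-125b libraries. Shc1, whose upstream and downstream starts differ in the N terminus of an adaptor of receptor tyrosine kinases, was at 149 and 129 against 124 and 122.

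GTPases and their regulators had 7 genes with an index, 2 at or below 20 and 4 between the limits in all 4 libraries. Rab37, a GTPase of secretory granules, was at 11.9 and 3.75 in control and 9.97 and 5.62 in miR-125b libraries. Tiam1, an exchange factor that activates RAC and is not among these 7 genes, was at 97.2 and 107 against 94.8 and 94.2. Of 9 RNA-binding and translation genes, 3 (Larp4, Rbms1 and Rbms2) were at or below 20 in every library and 5 lay between. The downstream bases of Larp4 overlap an exon of 2310068J16Rik, so its values (-54.4, -174, -22.8 and -53.5) may hold reads of that gene. Slc3a2, the heavy chain of the CD98 amino acid transporter, had values close to 0, at 2.84 and -1.05 in control and -0.112 and -3.16 in miR-125b libraries.

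Of 10 metabolic enzyme genes with an index, 4 lay between the limits in all 4 libraries, 5 crossed a limit and 1 was at or above 80. Hk1, hexokinase 1 of the first step of glycolysis, had an index of 43.4 and 37.9 in control and 43.8 and 44.4 in miR-125b libraries at 135 to 228 RPKM. Aldoa, aldolase A of glycolysis, was at 536 to 730 RPKM for the upstream row. Its index was 33.2 and 36.9 in control and 30.1 and 23.0 in miR-125b libraries, so that the control values were both above the miR-125b values. The groups did not overlap in 100 of the 252 genes with an index (39.7%), with 51 higher and 49 lower with miR-125b. For the start ratio of Aldoa the limma adjusted p was 0.876. In both genes the 300-base window of the upstream start, printed in part above, has nearly no CpG (ratios of 0.0507 for Hk1 and 0 for Aldoa), and that of the downstream start reaches 0.665 and 0.714.

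The GC content of the windows moved with the index. Among the 116 genes with an index and both windows, the Spearman correlation of the mean index with the GC difference of the windows (upstream minus downstream) was 0.347. The points share their libraries. The same GC difference moved with the gap between the control libraries: the correlation with the index of control replicate 2 minus that of control replicate 1 was 0.442, against 0.25 for miR-125b replicate 2 minus replicate 1 and -0.163 for miR-125b replicate 1 minus control replicate 1. Where the upstream window was richer by 10 GC points or more (30 genes), the median index was 82.1 in control replicate 2 and 57.2 to 59.4 in the other libraries. Where the downstream window was richer by as much (21 genes), it was 37.6 in control replicate 2 and 43.0 to 43.6 in the others. The part of GC content in the index of this library was not tested.

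Between control and miR-125b, no start ratio passed the test. The start ratio is the log2 of the RPKM of the upstream row over that of the downstream row, after adding 0.5 RPKM to each. It was fitted with limma over the 1979 multi-row genes whose paired rows both had a mean of 1 RPKM or more, 659 of them members, and 433 members did not pass this filter on low values. At an adjusted p under 0.05 (Benjamini-Hochberg over all 1979), 0 of 659 members and 0 of all genes fitted were called (0%), also with voom weights. At an unadjusted p under 0.05 there were 31 of 659 members (4.70%), against 132 of 1979 genes (6.67%) over the whole fit and 7.65% of the multi-row genes that are no member. With miR-125b 15 of these members were higher (2.28%, against 2.93% of all genes fitted) and 16 lower (2.43%, against 3.74%). The groups did not overlap in 228 members (34.6%), against 35.3% of all genes fitted and 35.6% of those that are no member. Of these, 110 members were higher (16.7%, against 17.0%) and 118 lower (17.9%, against 18.3%) with miR-125b. The shares among members were near or below the background.

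The median start ratio was -0.0019 and 0.0052 in control and -0.0036 and -0.000045 in miR-125b libraries. The absolute difference between groups had a median of 0.0135 and a 95th percentile of 0.119 on the log2 scale, and 7 members reached 0.2. Shared bases compress this scale, so a small difference need not be a small shift in start use. Under even coverage and with no RPKM added, the ratio would be 0.060 with the upstream and -0.057 with the downstream start alone for Cbfa2t3. For Lmo4 these limits are 0.29 and -0.43. Between the replicates of a group the median absolute difference was 0.0235 in control and 0.0133 with miR-125b. These are differences of single libraries, while the group difference is between means of 2 libraries, so their sizes are not directly comparable. With 2 against 2 libraries an exact 2-sided permutation test of a single value cannot go below p = 0.333. The count of 31 moved with single libraries: leaving out control replicate 1 or 2 gave 130 or 39, and leaving out miR-125b replicate 1 or 2 gave 13 or 11. In each of these fits the lone library of a group is assumed to vary like the other group.

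**Figure D3:**
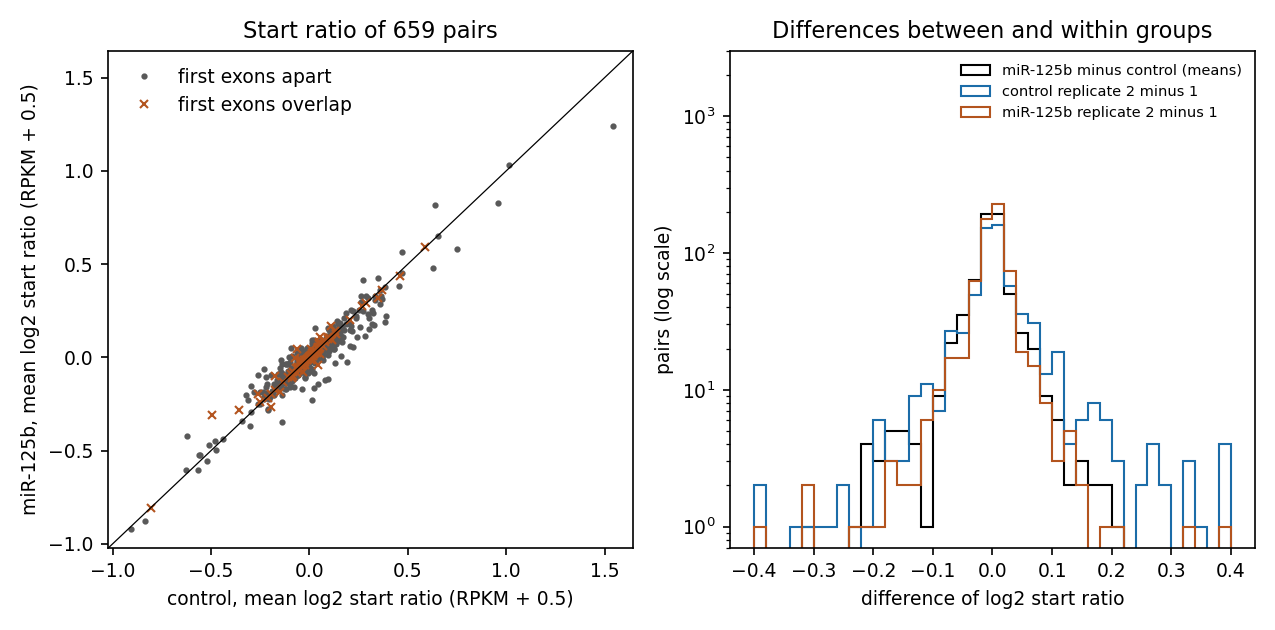
Left, mean log2 start ratio in miR-125b (vertical axis) against control (horizontal axis) for 659 pairs, with crosses where first exons overlap and a line at equality. Right, number of pairs (log scale) by the difference of the log2 start ratio between group means and between the replicates of each group, values beyond 0.4 drawn in the outer bins. The control replicates differ more than the miR-125b replicates, with a median absolute difference of 0.0235. Group means average 2 libraries and replicate differences do not.

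Both rows of a pair had group differences of the same sign in 640 of 659 members (97.1%), which their shared reads largely fix. At the level of single rows, on log2(RPKM + 1), 0 of 1325 member rows and 0 of 13390 rows were called by limma at an adjusted p under 0.05 (0%). At an unadjusted p under 0.05 there were 142 member rows (10.7%), against 9.63% of all rows. Of these, 73 were higher (5.51%, against 4.27%) and 69 lower (5.21%, against 5.35%). Without miR-125b replicate 1, 15 member rows (1.13%) were called, against 174 of 13390 rows (1.30%). In that fit the lone miR-125b library is assumed to vary like the control libraries.

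The pairs with the smallest p values in the ratio test are described as the rule for named genes asks, and since they were chosen for this difference, groups that do not overlap are no finding. Lmo4, a LIM-domain partner of transcription factors, has starts 2923 bases apart on chromosome 3 (mm9, minus strand, 143868219 and 143865296). In RPKM, its upstream row was at 35.0 and 60.6 (control) against 33.4 and 39.1 (miR-125b), and its downstream row at 26.8 and 45.7 against 29.2 and 32.8. The start ratio was 0.38 and 0.40 in control and 0.19 and 0.25 with miR-125b, a difference of -0.17 ± 0.031 (SE), with a limma adjusted p of 0.589. Its index was 114 and 117 in control and 86.5 and 95.3 in miR-125b libraries. In both groups the read ratio was thus nearer to that expected of the upstream start alone than of the downstream start alone. A start between the paired ones was not used for this pair.

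Usp2, a ubiquitin-specific protease with isoforms that differ in their N termini, had the opposite sign. In RPKM, the upstream row was at 6.77 and 6.75 (control) against 7.23 and 8.22 (miR-125b), and the downstream row at 8.25 and 8.16 against 7.96 and 8.56. Its index was 24.7 and 26.7 in control and 46.7 and 58.8 in miR-125b libraries, and the difference of the start ratio was 0.17 ± 0.034 (SE; limma adjusted p = 0.637). Ffar2, a receptor for short-chain fatty acids on neutrophils, had an index of 21.7 and 17.4 in control and 41.9 and 44.3 in miR-125b libraries. Its start ratio differed by 0.12 ± 0.018 (SE), and the adjusted p from limma was 0.589, the smallest of any member and shared with Lmo4, Snrpa and other members.

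Snrpa, a protein of the spliceosome, had a start ratio of 0.61 and 0.65 in control and 0.46 and 0.50 with miR-125b. Kdm4c, a histone demethylase, and Zfp710, a zinc finger gene, had differences of 0.023 and 0.035 on the log2 scale. For Kdm4c the ratio expected under even coverage is 0.072 with the upstream and -0.050 with the downstream start alone. Index values were 29.2 and 26.9 against 47.7 and 48.1 for Kdm4c (under the read limit) and 15.4 and 12.9 against 31.5 and 38.5 for Zfp710. The phosphodiesterase gene Pde7a had a start ratio near 0 in both control libraries (-0.00084 and 0.0047) and of -0.06 and -0.05 with miR-125b. For Aven, an inhibitor of apoptosis, it was 0.06 and -0.01 against -0.21 and -0.12. Crls1 (cardiolipin synthase) and the zinc transporter gene Slc39a14 also had lower ratios with miR-125b, by 0.060 and 0.020, and Trim39 a higher one, by 0.028. Over these 12 pairs, Txndc11 included, the adjusted p from limma lay between 0.589 and 0.718.

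**Figure D4:**
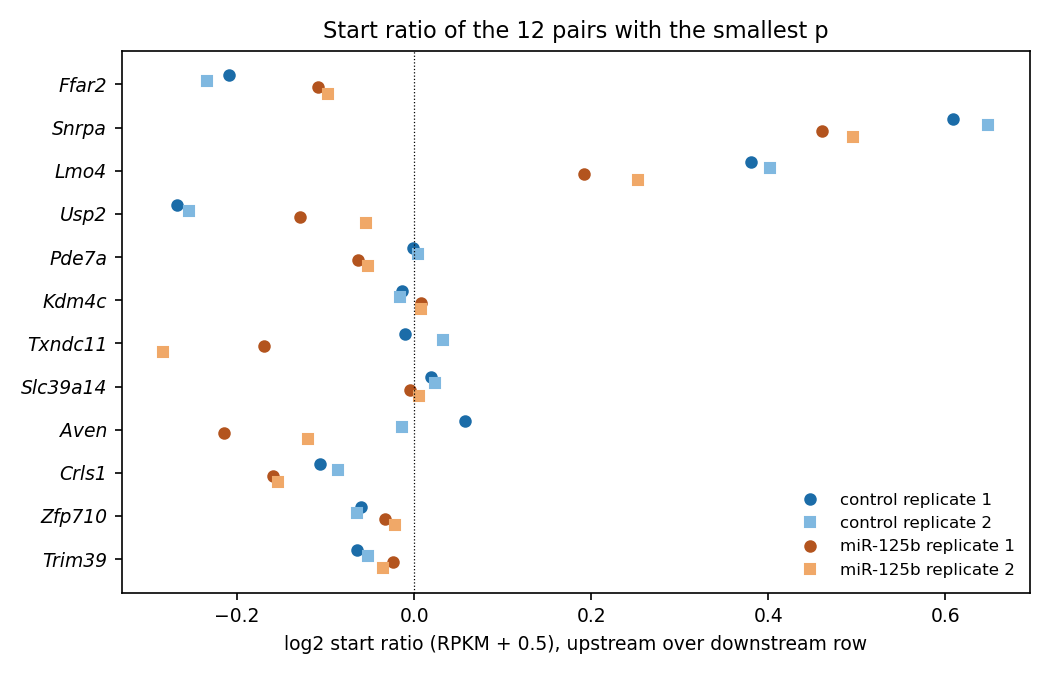
Log2 start ratio (horizontal axis, RPKM + 0.5) of the 12 pairs with the smallest p among pairs whose first exons do not overlap and whose higher row had a mean of 5 RPKM or more, by library. The groups do not overlap in any of these pairs, which were chosen for this difference, and no adjusted p is under 0.589.

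Where the downstream row is nested, that is, where all its exon bases lie in the upstream row, the reads of the bases held only by the upstream row are the difference of the rows. Of 61 such members, 19 had a mean of 10 or more reads in both parts. In limma's test of the upstream-only share, 0 of 19 members and 0 of 359 nested pairs of all multi-row genes were called (0%). At an unadjusted p under 0.05 the counts were 0 of 19 and 13 of 359 (3.62%), and the groups did not overlap in 7 of 19 (36.8%) against 32.6% of all nested pairs.

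In 10 of the 19 the first exons overlap, and upstream-only bases can also lie in later exons, so these densities need not measure the use of a start. The density of upstream-only reads differed widely between genes. Rtn3, a reticulon of the endoplasmic reticulum, had 35 and 34 upstream-only reads in control and 47 and 25 with miR-125b over 2189 bases, a density of 1.18%, 1.18%, 1.21% and 0.942% of that of the downstream row. Ly6e, a GPI-anchored surface protein, was at 4.21%, 6.24%, 4.78% and 5.02%, and Ssr4, a subunit of the translocon-associated complex, at 5.98%, 7.70%, 3.70% and 6.02%. Pdpk1, the kinase that activates AKT, had full density over its 5397 upstream-only bases, at 132% and 111% in control and 126% and 115% in miR-125b libraries. Pik3cd, the leukocyte catalytic subunit of phosphoinositide 3-kinase, was at 60.5% and 37.2% against 59.4% and 48.3%. The groups overlapped in each of these 5 genes.

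Txndc11, a thioredoxin-domain protein of the endoplasmic reticulum, had the smallest p of the nested members. Its 1757 upstream-only bases held 283 and 295 reads in control and 366 and 256 reads in miR-125b libraries, while the downstream row held 199 and 197 against 315 and 258. The density was 98.7% and 104% in control and 80.7% and 68.9% with miR-125b, and the groups did not overlap. The log2 share differed by -0.44 ± 0.20 (SE; limma adjusted p = 0.857). Sirt1, the NAD-dependent deacetylase, had 52 and 73 upstream-only reads in control and 30 and 33 with miR-125b, at an adjusted p from limma of 0.857. The first exons of Sirt1 begin only 40 bases apart while 406 bases are upstream-only, so most of these do not lie between the starts. Ctnnb1 (beta-catenin) was at 22.8% and 51.3% against 21.3% and 22.7%, with the high value in control replicate 2.

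**Figure D5:**
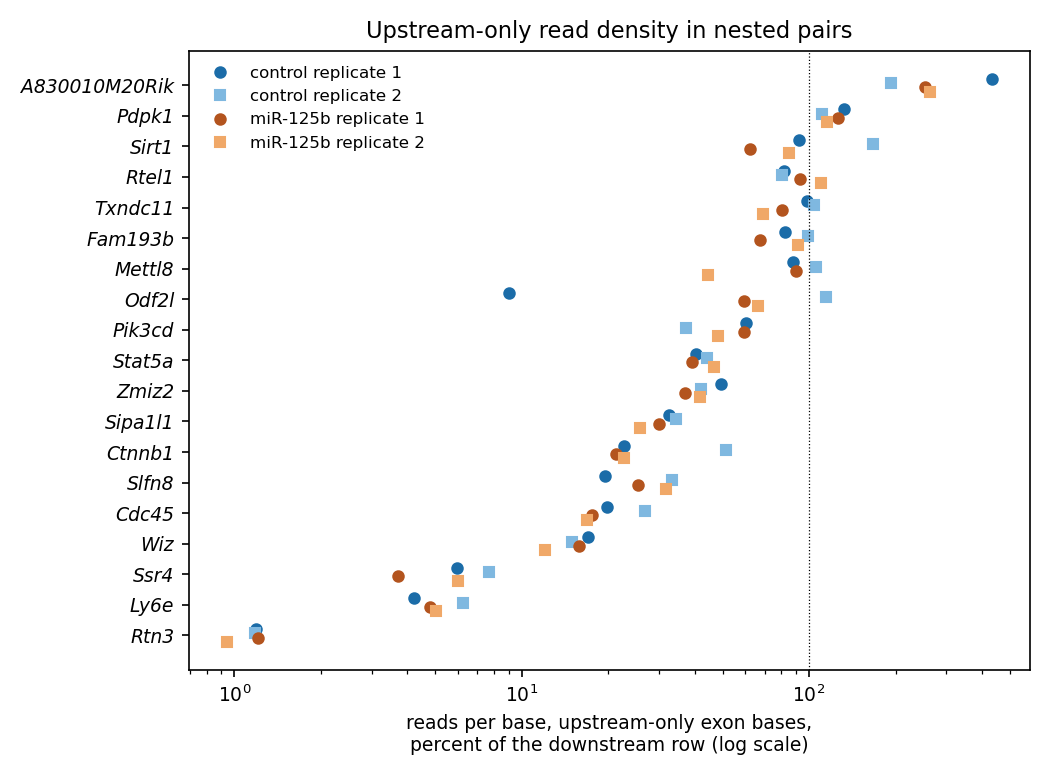
Reads per base in upstream-only exon bases as a percent of the reads per base of the downstream row (horizontal axis, log scale) for the 19 nested members, by library. Rtn3, Ly6e and Ssr4 lie below 8% in all 4 libraries and Pdpk1 above 100%.

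The most extreme start ratios show where a pair needs care. Mrpl48 had the highest mean ratio (1.38 and 1.70 in control, 1.40 and 1.09 with miR-125b) and the largest difference between groups (-0.30 ± 0.18 SE, limma adjusted p = 0.876), and its upstream-only bases overlap an exon of Rab6. Rmi1, a partner of the BLM helicase, had an index of 314 to 478, and its upstream-only bases overlap Hnrnpk, an abundant RNA-binding protein gene. Zc3h14, a poly(A)-binding zinc finger protein, had 527, 428, 695 and 674 more reads in upstream-only bases with no other gene listed there. At the low end, Oxr1 (oxidation resistance) and Prkag2 (the gamma subunit of AMP-activated kinase) had ratios of -0.83 to -0.89 and -0.52 to -0.59. Their upstream rows hold 2259 and 1199 bases that the downstream rows lack, and their index, under the read limit, was 1.15 to 3.20 and -1.26 to 9.10.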

How the data were processed

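The authors deposited 1 table per library with an RPKM value for each of 26982 RefSeq transcript rows, on mm9 per the submitters' processing notes (aligner, counter: not given in the sources used here). Tables were joined by transcript and position. Multiplying RPKM by exon length gave whole multiples of 1 step in 100.0% of rows (tolerance 0.001 reads), hence reads; depth was 11.2 and 10.4 M (control) and 12.6 and 11.7 M (miR-125b). Whether counting used strand, and how reads with several matches were treated, is not stated.

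Start ratios (pseudocount 0.5 RPKM), upstream-only shares (0.5 reads added) and row levels (pseudocount 1 RPKM) were tested with limma 3.58.1 (R 4.3.3), group as the only term, 2-sided, Benjamini-Hochberg, threshold 0.05. The prior variance of the ratio was trended on the share of unshared bases, and 2 residual degrees of freedom were left. The scripts were tested on simulated data. Ties for a start went to the longest row. Named genes were the 12 smallest p values of the ratio (first exons apart, 5 RPKM), the 8 smallest of the upstream-only share, the 5 highest and 5 lowest ratios, members of a list of 61 genes known for alternative promoters or for blood cells (17 are members, 13 were fitted), and examples of each gene family; any other named gene was picked with its values in view. The members and lists were chosen with earlier results of these data known. Alternatives were other pseudocounts, filters, tie rules, a prior with no trend, voom weights, a replicate block, and each library left out.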

Additional observations from a re-analysis of the deposited data

How the results depend on the processing

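Under each alternative for the start ratio and for the upstream-only share, 0 members were called, and the members at an unadjusted p under 0.05 for the ratio numbered 23 to 43 except with a library left out (11 to 130, against 31). Member rows called ranged from 0 to 15 of 1325 with a library left out; over all 13390 rows, 174 were called without miR-125b replicate 1 (15 members) and 53 without replicate 2 (0 members). With the replicate number as a block, limma called 0 member pairs, 0 member shares and 0 member rows, with 25, 3 and 153 at an unadjusted p under 0.05, and over all features 0 of 1979 pairs, 1 of 359 shares and 7 of 13390 rows; the labels do not say that the numbers pair the libraries, and replicate differences of the 2 groups correlated at 0.234 over members. Index counts at or above the upper limit, at or below the lower limit and between were 56, 27 and 86 with limits of 30 and 70, and 23, 10 and 170 with 10 and 90. They were 14, 9 and 69 with 50 expected reads, and 13, 10 and 66 for genes with 2 rows. Of 64 named results, 10 changed sign with a library left out, with differences from -0.011 to 0.056 for 2210404J11Rik, -0.00047 to 0.0012 for Cbfa2t3, -0.026 to 0.069 for Dnmt3a, -0.040 to 0.18 for Mitf, -0.015 to 0.013 for Ncoa4, -0.0046 to 0.039 for Pttg1, -0.0085 to 0.019 for Runx1, -0.098 to 0.019 for Socs2, -0.0034 to 0.0043 for Stat5a and -0.29 to 0.030 for Zc3h14. With ties given to the shortest row, Cbfa2t3 (-0.0031) and Rusc1 (0.00028) changed sign; the cause was not tested. Own bases with few reads limit the index and the shares.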

Other observations

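Families of members beside those above were small. Of 6 transporter and channel genes with an index, 1 was at or below 20 and 3 lay between the limits in all 4 libraries. All 3 cytoskeleton and motor genes with an index (Add3, Kif20a and Myo1c) lay between, and of 5 immune receptor and ligand genes 2 lay between and 3 crossed a limit. In the ratio test at an unadjusted p under 0.05, transcription factors and chromatin genes had 4 of 51 fitted members higher and 1 lower with miR-125b, against 2.28% higher and 2.43% lower over all members. Transporters and channels had 0 higher and 2 lower of 24, GTPases and their regulators 1 and 1 of 22, RNA-binding and translation genes 1 and 1 of 19, and metabolic enzymes 1 and 0 of 19. Kinases and phosphatases (22), immune receptors and ligands (10) and cytoskeleton and motor genes (5) had 0 in either direction. In limma's test 0 of these members were called at an adjusted p under 0.05.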
